A study of Homo sapiens with 6 samples.

Results

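The prostaglandin synthesis and receptor genes are the 10 rows of the count table that carry the names PTGS1, PTGS2, PTGES, PTGES2, PTGES3, PTGER1, PTGER2, PTGER3, PTGER4 and HPGD, of 58735 genes in all. They were chosen by name, and the set was proposed with its difference between the groups already seen, so the values of the 10 genes are given as a description without a p-value. H1155 is a neuroendocrine large cell lung cancer line that grows as floating clusters. The study reports that after GFI1 deletion the cells grew singly and attached to the substrate. Polyadenylated RNA was sequenced in 3 libraries of wild-type (WT) H1155 cells and 3 libraries of H1155 cells labelled as GFI1 knockout (GFI1-KO), all grown untreated in DMEM with 10% FBS. GFI1 is a transcriptional repressor best known in blood cells, and the comparison asks which transcripts differ when it is removed. The GFI1-KO cells were made with Cas9 and pairs of guide RNAs against the promoter region of GFI1 and were grown from sorted single cells. Clone, growth mode and genotype therefore cannot be told apart in this comparison. No source used here says that the 3 libraries of a group came from separate cultures, and test results therefore measure the spread between these libraries, which may be technical.

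Prostaglandins are lipid signals made from arachidonic acid, which phospholipases release from membranes. The cyclooxygenases PTGS1 (COX-1, usually constitutive) and PTGS2 (COX-2, usually inducible by cytokines and growth factors) convert arachidonic acid to prostaglandin H2, and the prostaglandin E synthases turn that into prostaglandin E2, which acts on the receptors EP1 to EP4 encoded by PTGER1 to PTGER4. HPGD begins the inactivation of prostaglandin E2, and in lung tumors the pathway is known for its part in inflammation and growth.

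Library totals ranged from 14882914 to 16102215 counts in WT and from 17503794 to 17692882 in GFI1-KO, and 17514 genes passed the filter on low counts. A gene was called when edgeR's quasi-likelihood test gave a Benjamini-Hochberg adjusted p of at most 0.05 over all tested genes, with no minimum fold. By this rule 36.5% of the tested genes were called higher and 35.9% lower in GFI1-KO, 72.4% in either direction, and 74.4% had all libraries of one group above all of the other. GFI1 itself had 153, 106 and 125 counts in WT and 174, 188 and 170 in GFI1-KO (log2 fold change 0.31, SE 0.12). That call was lost with DESeq2, at an adjusted p of at most 0.01, with upper-quartile factors, with offsets for GC content and length, and without WT replicate 2 (0.21), WT replicate 3 (0.28) or GFI1-KO replicate 2 (0.27). The GFI1-KO libraries thus held no less GFI1 transcript than WT, and within these counts every direction given here rests on the labels. The study also presents GFI1 immunoblots of H1155 cells with and without the deletion, a protein measure that transcript counts cannot check. All 12 listed neuroendocrine markers were tested, 8 called higher and 4 lower in GFI1-KO, against 36.5% and 35.9% of all tested genes. Of these, SYP, CHGA, INSM1 and NEUROD1, chosen after their values were seen, were detected in all 6 libraries, with at least 509 counts each. Across 17415 tested genes the log2 fold change correlated with GC content (Spearman rho 0.59) and with length over 17514 genes (rho -0.17), where genes are not independent replicates. When offsets for both were fitted, the new value or the lost call is given at the genes whose fold moved by over 1.5 times or whose call or direction changed. Smaller moves are not listed, and genes named after their values were seen carry no offset value.

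Of the 10 genes, 7 passed the filter on low counts and PTGER1, PTGER2 and PTGER3 did not. All 7 were called, 4 higher (PTGS2, PTGES, PTGES2, PTGER4) and 3 lower (PTGS1, PTGES3, HPGD), against 36.5% and 35.9% of all tested genes. The groups did not overlap in any of the 7, against 74.4% of all tested genes. HPGD, with 9, 10 and 6 counts in GFI1-KO, passed the filter only through its WT libraries. Its call and its lack of overlap were therefore favoured by the filter. With offsets for GC content and length the count was 2 higher and 4 lower, against 35.9% and 25.3% of all tested genes under the same offsets.

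The regions in front of PTGS2 and PTGES are shown because the inducible cyclooxygenase and the synthase usually coupled to it were both called higher. RefSeq promoter entries (GRCh38.p14) were matched for 9 of the 10 genes, and each window below is the 250 bases before the annotated start, 5′ to 3′ on the strand of the gene. Capitals mark matches, on either strand, to a TATA box (TATAAA), a cAMP response element half-site (CGTCA), a C/EBP consensus (TTNNGNAA), a GC box (GGGCGG) or the NF-kappa-B consensus. An E-box (CACGTG) was also searched and was in neither.
PTGS2, chr1:186680424-186680673, minus strand: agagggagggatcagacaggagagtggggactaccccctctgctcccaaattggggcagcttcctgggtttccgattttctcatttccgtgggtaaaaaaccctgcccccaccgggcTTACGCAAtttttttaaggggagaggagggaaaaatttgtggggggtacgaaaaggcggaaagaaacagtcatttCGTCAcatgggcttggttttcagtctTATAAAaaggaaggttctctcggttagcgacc
PTGES, chr9:129753043-129753292, minus strand: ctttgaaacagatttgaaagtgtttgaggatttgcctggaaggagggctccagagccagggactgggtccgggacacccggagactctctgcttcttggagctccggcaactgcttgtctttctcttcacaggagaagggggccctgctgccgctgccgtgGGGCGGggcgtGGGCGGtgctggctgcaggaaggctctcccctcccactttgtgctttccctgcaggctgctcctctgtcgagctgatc
The PTGS2 window holds a TATA box 32 bases, a CRE half-site 58 bases and a C/EBP match 133 bases before the start. It has no match to the NF-kappa-B consensus as searched, and sites that depart from that spelling would be missed. Among 34788 windows of the same length, 10.8% hold the TATA box, 21.2% the CRE half-site and 33.2% the C/EBP consensus. The PTGES window has neither a TATA box nor a CRE half-site and holds GC boxes 89 and 78 bases before the start. The PTGER4 window (chr5:40679665-40679914, plus strand, letters not shown) holds 4 GC boxes, at 179, 155, 138 and 93 bases, and an NF-kappa-B match at 244 bases, and its start lies 417 bases inside the deposited gene. GC boxes were in 42.6% and NF-kappa-B matches in 9.95% of all windows. The 4-letter core of the GFI1 motif (AATC, left in lower case) lies 177 bases before PTGS2, 240 and 222 bases before PTGES and 81 bases before PTGER4, and it was in 64.8% of all windows. The GC content was 50.4% for PTGS2, 61.2% for PTGES and 72.8% for PTGER4, beside a median of 58%. Such matches were also found before genes called lower. PTGES3 has a CRE half-site at 21 bases and an NF-kappa-B match at 121 bases, and its start lies 124 bases inside the deposited gene. HPGD has a CRE half-site at 77 bases and, in another window, an NF-kappa-B match at 70 bases. The starts of these HPGD windows lie 261 and 666 bases inside the deposited gene. Unlike the PTGS2 and PTGES windows, those of PTGES3 and HPGD overlap annotated untranslated regions. PTGS1 has the letters TATAAA at 208 bases, against 32 bases in PTGS2. In another PTGS1 window, whose start lies 4772 bases inside the deposited gene, a C/EBP match is at 115 bases. As letters alone the matches are thus not particular to the genes called higher, though their positions differ. They describe the letters of the windows and say nothing of binding in these cells.

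**Figure D1:**
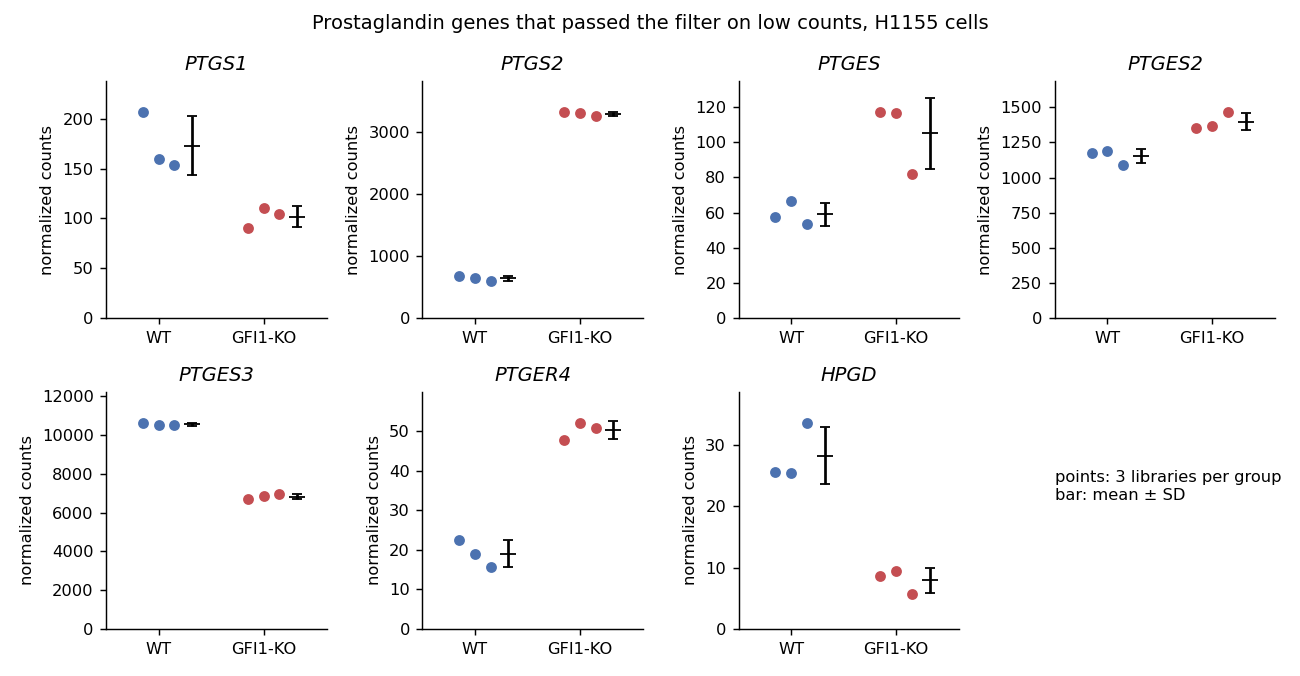
Normalized counts (counts scaled to a common library size) of the 7 prostaglandin genes that passed the filter, in each WT and GFI1-KO library, with the mean and SD of 3 libraries beside the points and every axis starting at 0. PTGS2 sits between 602 and 687 in WT and between 3260 and 3321 in GFI1-KO.

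Of the cyclooxygenases, PTGS2 was higher and PTGS1 lower in GFI1-KO. PTGS2 (ENSG00000073756, GRCh38 chr1:186671791-186680427, minus strand) had 671, 583 and 574 counts in the WT libraries and 3485, 3480 and 3464 in the GFI1-KO libraries. Every GFI1-KO library stood several-fold above every WT library. Normalized to a common library size, the mean went from 645 ± 42.3 to 3293 ± 30.7 (SD, n = 3 each), 5.10-fold higher, a log2 fold change of 2.35 (SE 0.05). Only 2.83% of the tested genes had a larger change in either direction. Per gene length, PTGS2 averaged 7.43 FPKM (counts divided by gene length and library total) in WT, above 62.5% of tested genes, and 37.5 FPKM in GFI1-KO, above 93.3%. The log2 fold change was 3.01 with the offsets for GC content and length. No 50-base word of its transcripts was shared with another gene.

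PTGS1 (ENSG00000095303, chr9:122370530-122395703, plus strand) had 202, 144 and 146 counts in WT and 95, 117 and 111 in GFI1-KO. The WT libraries were the higher ones, with WT replicate 1 highest. Its normalized mean was 173 ± 29.3 in WT and 102 ± 10.4 in GFI1-KO, 1.70-fold lower (log2 fold change -0.77, SE 0.14). The change was small beside that of PTGS2, since 28.0% of tested genes changed more.

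The makeup of the cyclooxygenase transcripts shifted accordingly. Of the summed FPKM of both genes, PTGS2 made up 78.5%, 81.7% and 81.2% in the WT libraries and 97.6%, 97.0% and 97.2% in the GFI1-KO libraries. PTGS2 was the more abundant cyclooxygenase in all 6 libraries, by 4.14 ± 0.429 times in WT and 35.8 ± 4.02 times in GFI1-KO (FPKM ratio, SD, n = 3 each). RNA from bulk cells cannot tell apart more cells with PTGS2 transcript and more transcript in each cell.

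Immune, fibroblast and endothelial markers, of other cells that can carry PTGS2, were examined in the same libraries. Epithelial markers were read as a check on the labelled cell type. Of 8 immune markers, 1 passed the filter, CD3E, MS4A1 and TYROBP had no count in any library, and their summed level was 0.803 to 0.865 FPKM in WT and 0.696 to 0.785 in GFI1-KO. Of 8 fibroblast markers, 5 passed, 2 called higher and 3 lower, DCN had no count, and the sum was 17.7 to 18.1 FPKM in WT and 12.6 to 13.1 in GFI1-KO. Of 5 endothelial markers, 2 passed and 1 was called lower, with a sum of 3.55 to 3.97 FPKM in WT and 1.76 to 1.99 in GFI1-KO. Of 5 epithelial markers, 4 passed, with 1 higher and 2 lower, and the sum was 41.5 to 44.4 FPKM in WT and 44.6 to 49.9 in GFI1-KO. The part of these differences in the change of PTGS2 was not tested.

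The 3 prostaglandin E synthases moved in different directions and differed widely in level. PTGES, the inducible microsomal synthase usually coupled to PTGS2 (ENSG00000148344, chr9:129738331-129753047, minus strand), had 56, 60 and 51 counts in WT and 123, 123 and 87 in GFI1-KO. GFI1-KO replicate 3 was the lowest of its group and still above every WT library. The normalized mean was 59.1 ± 6.62 in WT and 105 ± 20.2 in GFI1-KO, 1.78-fold higher (log2 fold change 0.83, SE 0.18). With the offsets for GC content and length the log2 fold change was 0.41 and the call was lost, and it was called again when those offsets were combined with a replicate block.

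PTGES2, a membrane-associated synthase (ENSG00000148334, chr9:128120693-128128462, minus strand), had 1147, 1075 and 1041 counts in WT and 1420, 1445 and 1558 in GFI1-KO. The groups were close but did not overlap, with normalized means of 1152 ± 52.3 and 1396 ± 61.2, 1.21-fold higher in GFI1-KO (log2 fold change 0.28, SE 0.05). The direction of this gene turned to -0.41 with the offsets for GC content and length, and its transcripts have a GC content of 63.1%, the highest of the 7. A change larger than that of PTGES2 was seen in 70.6% of the tested genes.

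PTGES3, the cytosolic synthase that is also the HSP90 co-chaperone p23 (ENSG00000110958, chr12:56663341-56688408, minus strand), had 10386, 9504 and 10004 counts in WT and 7010, 7218 and 7388 in GFI1-KO. It was lower in every GFI1-KO library, with normalized means of 10552 ± 72.2 and 6824 ± 137, 1.55-fold lower (log2 fold change -0.63, SE 0.03). The change was -0.30 with the offsets for GC content and length. Of its 50-base transcript words, 6.96% also occur in other genes, PTGES3 pseudogenes among them, so a small part of its counts is uncertain. It remained the most abundant of the 10 genes, at 188 FPKM in WT and 120 FPKM in GFI1-KO. Of the summed FPKM of the 3 synthases, PTGES3 made up 88.3% ± 0.485 in WT and 79.6% ± 0.116 in GFI1-KO, PTGES2 10.8% ± 0.401 and 18.2% ± 0.489, and PTGES 0.887% ± 0.0959 and 2.21% ± 0.456 (SD, n = 3 each).

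Of the prostaglandin E2 receptors, PTGER4 was the one that passed the filter. PTGER4 (EP4, a receptor that raises cAMP, ENSG00000171522, chr5:40679498-40693735, plus strand) had 22, 17 and 15 counts in WT and 50, 55 and 54 in GFI1-KO. The lowest GFI1-KO library had more than the highest WT library. Its normalized mean went from 19.0 ± 3.40 to 50.2 ± 2.30, 2.62-fold higher (log2 fold change 1.39, SE 0.25, and 1.16 with the offsets for GC content and length). Its level was low in both groups, 0.292 FPKM in WT and 0.760 FPKM in GFI1-KO. The gene lies wholly inside TTC33, which is read from the opposite strand over all 14238 bases. TTC33 was called the other way, from 556 to 398 normalized counts (log2 fold change -0.48, turning to 0.24 with the offsets). Whether the counting used strand is not given in the sources used here, and without strand the reads of these overlapping genes cannot be fully told apart.

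The other receptors were at the limit of detection. PTGER1 (EP1, coupled to calcium) had 1, 0 and 0 counts in WT and 0, 2 and 0 in GFI1-KO. PTGER2 (EP2, like EP4 coupled to cAMP) had 1, 0 and 1 counts in WT and 0, 1 and 1 in GFI1-KO. PTGER3 (EP3, which lowers cAMP) had 0, 1 and 4 counts in WT and 5, 1 and 2 in GFI1-KO. A count of 0 in one library allows up to 3 counts, which is 0.170 to 0.202 CPM (counts scaled to the library total) in these libraries, and differences between the groups were not detectable at this depth for these 3 receptors. Such limits cover counting error only.

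HPGD, the 15-hydroxyprostaglandin dehydrogenase that starts the breakdown of prostaglandin E2 (ENSG00000164120, chr4:174490177-174523154, minus strand), had 25, 23 and 32 counts in WT and 9, 10 and 6 in GFI1-KO. All 3 GFI1-KO libraries were below all 3 WT libraries. The normalized mean fell from 28.2 ± 4.65 to 7.90 ± 2.00, 3.54-fold lower (log2 fold change -1.82, SE 0.35, and -1.22 with the offsets). The counts are few: the exact Poisson 95% interval of GFI1-KO replicate 3 runs from 2.20 to 13.1 counts. HPGD did not enter the test when at least 10 counts were required in every library.

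**Figure D2:**
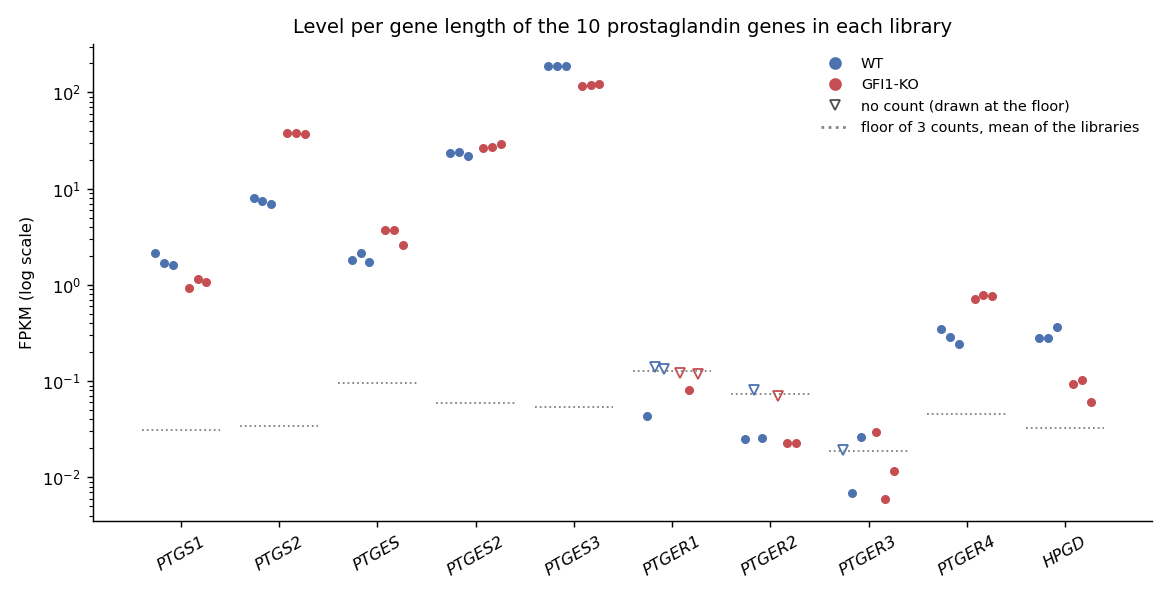
FPKM (log axis) of the 10 prostaglandin genes in each of the 3 WT and 3 GFI1-KO libraries, with open triangles for libraries without a count and a dotted line at the level of 3 counts. PTGES3 is highest at 118 to 190 FPKM, PTGS2 moves from below PTGES2 in WT to above it in GFI1-KO, and PTGER1, PTGER2 and PTGER3 lie around or below the dotted line.

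Per gene length the order in WT was PTGES3 (188 FPKM), PTGES2 (21.8 to 23.8), PTGS2 (7.43), PTGES (1.89), PTGS1 (1.81), HPGD (0.310) and PTGER4 (0.292). PTGES and PTGS1 overlapped in that order, as did HPGD and PTGER4. In GFI1-KO the order was PTGES3 (120 FPKM), PTGS2 (37.5), PTGES2 (27.6), PTGES (3.33), PTGS1 (1.06), PTGER4 (0.760) and HPGD (0.0857), and no neighbouring pair of these 7 overlapped between libraries. PTGS2 thus stood below PTGES2 in every WT library and above it in every GFI1-KO library.

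**Figure D3:**
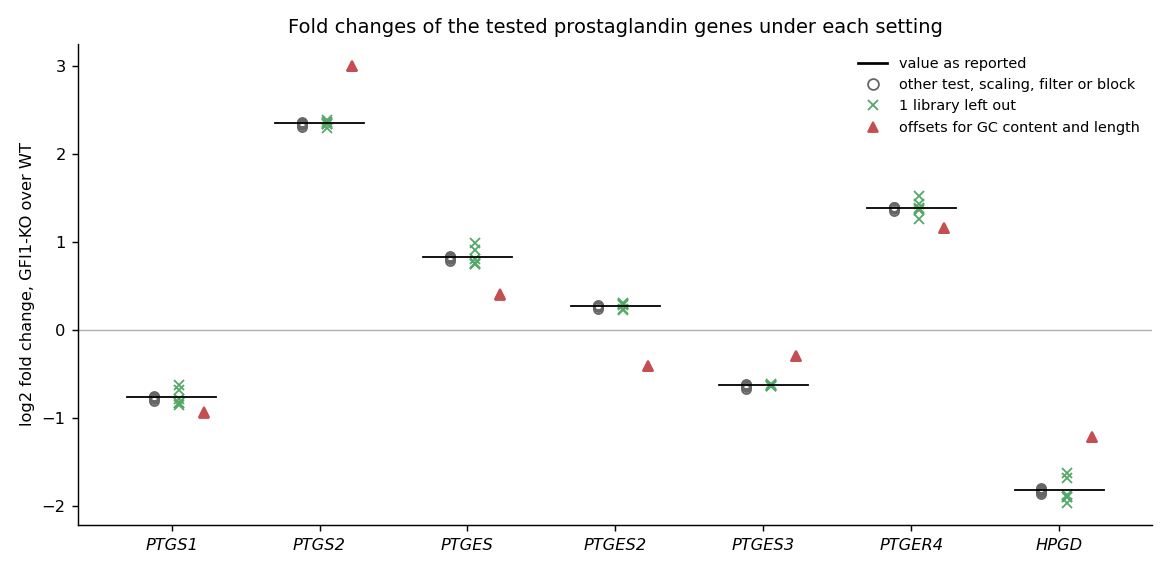
Log2 fold change (GFI1-KO over WT) of the 7 tested prostaglandin genes as reported (line), with another test, scaling, filter or block (circles), with 1 library left out (crosses) and with offsets for GC content and length (triangles). The triangle of PTGES2 lies on the other side of 0, at -0.41, and that of PTGS2 is at 3.01.

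The rest of the pathway was described from lists of 153 other genes, of which 117 were tested, 71 called higher and 32 lower. Their median log2 fold change was 0.40, beside 0.00 over all tested genes, where 36.5% were called higher and 35.9% lower. Offsets for GC content and length gave 56 higher and 26 lower, against 35.9% and 25.3% of all tested genes under them. The lists were drawn up with results of these data known and share the libraries of the 10 genes. Values in parentheses after a gene of these lists are log2 fold changes, and "the offsets" are those for GC content and length. Over 10% of the 50-base words are shared with other genes for PLA2G12A (16.9%), CBR1 (13.2%) and HSP90AA1 (11.6%), beside those named as uncertain.

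Of 24 genes that release or re-store arachidonate, 15 were tested, 11 called higher and 3 lower (median 0.43). PLA2G4A, the cytosolic phospholipase A2 that feeds the cyclooxygenases, had 7, 6 and 11 counts in WT and 39, 42 and 60 in GFI1-KO (log2 fold change 2.38, SE 0.33). The lysosomal phospholipase PLA2G15 went from 196 to 386 normalized counts (0.98), the calcium-independent PLA2G6 from 146 to 285 (0.97) and the anandamide hydrolase FAAH from 296 to 472 (0.67, and 0.02 with the offsets, where its call was lost). ACSL4, which couples arachidonate to coenzyme A, was lower (-0.85, and -0.12 with the offsets), as were the secreted phospholipase PLA2G12A (-0.76, and -0.36 with the offsets) and the monoacylglycerol lipase ABHD6 (-0.42). PLA2G2A, PLA2G4F and PLA2G5 had no count in any library.

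Of 8 enzymes that make other prostanoids, 4 were tested, 3 called higher and 1 lower (median 0.62). AKR1C3, a prostaglandin F synthase, had 24, 16 and 25 counts in WT and 107, 136 and 127 in GFI1-KO (log2 fold change 2.34, SE 0.20), and 5.23% of its 50-base words are shared, with AKR1C1 and AKR1C2 among others. PRXL2B, another prostaglandin F synthase, was higher (0.87, and 0.22 with the offsets) and so was the carbonyl reductase CBR1 (0.37, and 0.04 with the offsets, where the call was lost), while AKR1B1 was lower (-0.20). The dedicated synthases of other branches were near 0: HPGDS had 1 count in all, PTGDS 1 and PTGIS 0. Thromboxane synthase TBXAS1 had 7, 8 and 8 counts in WT and 13, 9 and 21 in GFI1-KO and was not tested.

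Among 6 receptor genes of other prostanoids, 2 were tested. The thromboxane receptor TBXA2R was called higher, from 52.6 to 82.7 normalized counts (log2 fold change 0.65, turning to -0.05 with the offsets), and PTGFRN, an inhibitor of the prostaglandin F receptor, was called lower (-0.16). PTGDR had no count, PTGFR had 3 counts in one library of each group, PTGDR2 had 4, 3 and 2 counts in WT against 0, 1 and 1, and the prostacyclin receptor PTGIR had 4, 2 and 7 against 1, 0 and 0. These levels were too low to test.

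Of 10 genes of prostaglandin transport and inactivation, 9 were tested, 4 called higher and 3 lower (median 0.05). The uptake carrier SLCO2B1 went from 111 to 375 normalized counts (1.76), CBR3 from 36.2 to 76.7 (1.09) and the prostaglandin reductase PTGR1 from 623 to 835 (0.42). CBR4 (-0.76) and SLCO4A1 (-0.51) were lower. The exporter ABCC4 was lower at -0.29, which turned to 0.07 with the offsets, and the main prostaglandin uptake carrier SLCO2A1 had 0 counts in WT and 1, 1 and 0 in GFI1-KO.

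**Figure D4:**
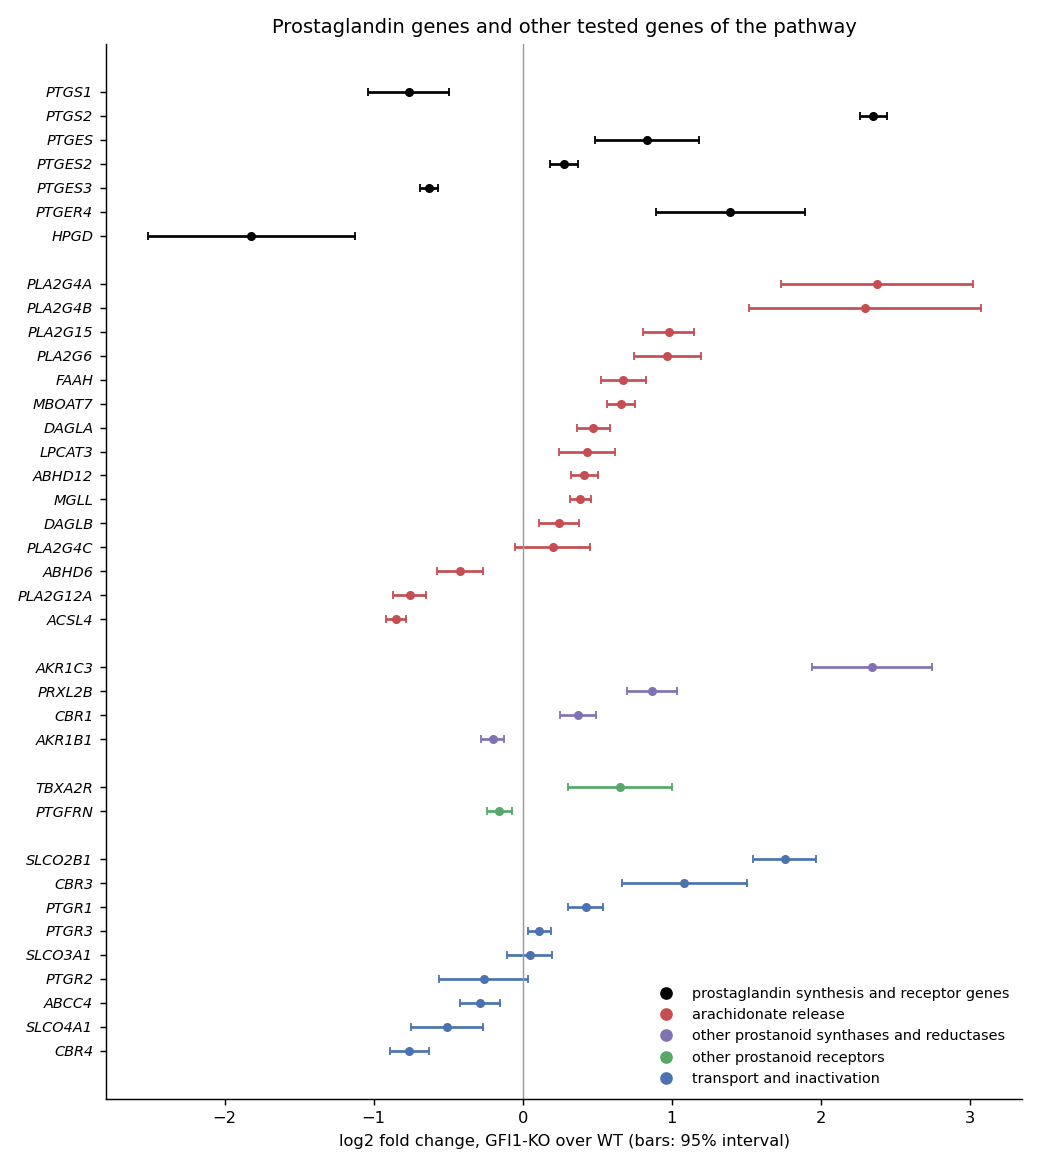
Log2 fold change (GFI1-KO over WT) with its 95% interval for the 7 tested prostaglandin genes and the tested genes of arachidonate release, other prostanoid enzymes, other receptors, and transport and inactivation. PTGS2 (2.35), PLA2G4A (2.38) and AKR1C3 (2.34) lie far to the right and HPGD (-1.82) farthest to the left.

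The lipoxygenase branch uses the same arachidonate. Of its 18 genes, 11 were tested, 5 called higher and 3 lower (median 0.39). ALOX5, the first enzyme of leukotriene synthesis, fell from 203 ± 14.0 to 45.5 ± 9.23 normalized counts (log2 fold change -2.16, SE 0.15), and its partner ALOX5AP had no count in any library. GGT1, which trims cysteinyl leukotrienes, rose by 3.06 on the log2 scale, but 58.3% of its 50-base words are shared with other genes and its value is uncertain. GGT5 (0.87) and the leukotriene B4 receptor LTB4R (0.43, and 0.04 with the offsets, where the call was lost) were also higher.

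Downstream of the receptors, 30 of 33 genes of G protein and cAMP signalling were tested, 14 called higher and 12 lower (median 0.05). PDE4B, which degrades cAMP, rose from 225 to 621 normalized counts (1.46), the adenylyl cyclase ADCY7 from 110 to 289 (1.39) and the cAMP sensor RAPGEF3 from 128 to 291 (1.18). PDE3B (-1.44), the sensor RAPGEF4 (-1.37) and the inhibitory G protein subunit GNAI1 (-0.96, and -0.27 with the offsets) fell. Of 13 genes known as cAMP or CREB targets, 11 were tested, 8 called higher and 1 lower (median 0.44). BTG2 was higher at 1.20, and SIK1 at 0.64, a call lost with the offsets and a gene with 85.3% of its words shared. NR4A1 (0.49) turned to -0.0032 with the offsets, and CREM was lower (-0.41, its call lost with the offsets).

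Of 29 genes known to act on PTGS2 transcription or on the stability of its transcript, 23 were tested, 18 called higher and 4 lower (median 0.77). ZFP36, which promotes decay of transcripts with AU-rich elements, had 83, 65 and 55 counts in WT and 330, 387 and 414 in GFI1-KO (log2 fold change 2.32, SE 0.13). On the log2 scale the transcription factors JUN and CEBPD rose by 1.83 and 1.54, and CEBPD by 0.74 with the offsets. TIA1 (-0.73, and -0.09 with the offsets), ELAVL1 (-0.49) and NFATC4 (-0.45, and -0.92 with the offsets) fell, and of these TIA1 and ELAVL1 bind AU-rich elements. Chosen after their values were seen, CEBPB went from 619 to 1519 normalized counts (1.29) and the cytokine CXCL8 from 4672 to 12848 (1.46). All 12 listed HSP90 proteins and partner chaperones of PTGES3 were tested, 7 called higher and 4 lower (median 0.15). CDC37 (1.12, and 0.52 with the offsets), DNAJB1 (0.89) and AHSA1 (0.51) were higher and HSP90AA1 (-0.61) and FKBP5 (-0.49, its call lost with the offsets) lower, while HSP90B1 (-0.38) turned to 0.10 with the offsets.

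The genes around the 10 prostaglandin genes were read to place their changes. Within 250 kb, 79 protein-coding neighbours were found, 58 were tested, 36 called higher and 12 lower (median log2 fold change 0.39), against 36.5% and 35.9% of all tested genes. Around PTGS2, PLA2G4A, 148.5 kb upstream, was the single tested neighbour and changed by nearly the same log2 amount (2.38 against 2.35). The long noncoding RNA PACERR starts 195 bases upstream of PTGS2 on the opposite strand. It had 4, 3 and 3 counts in WT and 16, 22 and 16 in GFI1-KO (log2 fold change 2.23, SE 0.46). PTGS2, PLA2G4A and PACERR were therefore higher in each GFI1-KO library than in each WT library. PLA2G4A and PACERR had few WT counts and passed the filter only through their GFI1-KO libraries. The other protein-coding neighbour, PDC, 210.7 kb downstream, went the other way. It had 8, 5 and 4 counts in WT and 0, 1 and 0 in GFI1-KO and was not tested.

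Around PTGES, 9 neighbours were tested, 6 called higher and 2 lower. The homeobox gene PRRX2, 15.7 kb downstream, went from 54.2 to 505 normalized counts (3.22, and 2.33 with the offsets), and TOR1B from 967 to 1299 (0.42). Around PTGES2, 16 of 17 tested neighbours were called higher, with a median of 0.64, C9orf16 at 1.24 and SLC25A25 at 0.68 among them. With the offsets for GC content and length, C9orf16 was at 0.55 and SLC25A25 at 0.38 while PTGES2 turned to -0.41. Around PTGES3, 4 of 9 tested neighbours were called higher and 2 lower, BAZ2A at 0.30 and NACA at -0.17 (its call lost with the offsets).

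Around PTGS1, 1 of 4 tested neighbours was called higher and 2 lower, MRRF at -0.31 (its call lost with the offsets) and RBM18 at -0.35, which turned to 0.22 with the offsets. Around PTGER4, 2 of 4 tested neighbours were called higher, CARD6 at 1.73 and RPL37 at 0.34 (both named after their values were seen), and 2 lower. Beside TTC33, PRKAA1 was lower at -0.57, which turned to 0.01 with the offsets. CEP44, 156.8 kb downstream of HPGD, was lower at -0.78, a call lost with the offsets (-0.06). Near the receptors at the detection limit, TXNDC16 (-1.05) and GPR137C (-0.69, and -0.0039 with its call lost under the offsets) near PTGER2 and ZRANB2 (-0.49, turning to 0.27 with the offsets) near PTGER3 were lower, and GIPC1 (0.75, and 0.09 with its call lost under the offsets) and DNAJB1 (0.89) near PTGER1 were higher.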

How the data were processed

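RNA-Seq of polyadenylated RNA was run on an Illumina NovaSeq. The authors deposited 1 table of raw counts per gene with gene lengths and GRCh38 coordinates. Their methods name Hisat2 and featureCounts while the submitters' processing notes name Bowtie2 and HTSeq, so the aligner and counter are uncertain. The strand setting and the rule for reads with several matches are not given in the sources used here.

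The counts were fitted with edgeR 4.0.16 (R 4.3.3) after filterByExpr and TMM normalization, with the quasi-likelihood F test on group alone over all 17514 genes tested and Benjamini-Hochberg adjustment. Normalized counts were scaled by TMM to a common library size, and FPKM was computed from library totals and the deposited lengths. GC content, shared words of 50 bases and untranslated regions came from GENCODE release 44, and promoters from RefSeq. On simulated data with 200 of 17514 genes changed by a log2 of 1 in this comparison, 90% of them were recovered, and 7.22% of calls were unchanged genes. In the data 72.4% of tested genes were called, far more than were changed in the simulation, so these rates may not hold here.

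Correlations of deviations between libraries with the same replicate number were -0.0036, 0.0166 and 0.0235, so the numbers were not taken as pairs. Within groups, log2 normalized counts of libraries correlated at 0.989 to 0.992, and the counts of each pair differed by more than sampling noise (chi-square over degrees of freedom 1.84 or more). Alternatives were other scalings, DESeq2 1.42.0, limma-voom (limma 3.58.1), other filters, a replicate block, offsets for GC content and length (splines with 5 degrees of freedom), an adjusted p of at most 0.01, and leaving out each library. The 10 genes and all lists were chosen with earlier results of these data known. Genes were named by rule: the 10 genes, a set of other prostanoid genes, per list up to 3 called higher and 3 called lower with the largest change (mean of at least 50 normalized counts, groups not overlapping), up to 2 called neighbours nearest each gene within 250 kb, and GFI1. Genes named outside it were chosen after their values were seen.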

Additional observations from a re-analysis of the deposited data

How the results depend on the processing

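With the offsets for GC content and length, 2 of the 7 tested prostaglandin genes were called higher and 4 lower, and with those offsets and the replicate block 3 and 4. Over all tested genes these settings gave 6279 higher and 4425 lower, and 6238 and 4348. Under these offsets, without and with the block, the log2 fold change reversed for PTGES2 (-0.41 and -0.41), TBXA2R (-0.049 and -0.050), ABCC4 (0.066 and 0.065), NR4A1 (-0.0032 and -0.0012), HSP90B1 (0.10 and 0.10), RBM18 (0.22 and 0.22), ZRANB2 (0.27 and 0.27), TTC33 (0.24 and 0.24) and PRKAA1 (0.011 and 0.011). The offsets remove a trend over all genes by construction, and whether that trend is technical was not tested.

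The replicate block alone gave 6359 genes higher and 6214 lower, and 4 and 3 of the prostaglandin genes. Every other alternative also gave 4 higher and 3 lower among these, except that with at least 10 counts in every library HPGD was not tested and 2 were lower. Leaving out each library gave 4 and 3 throughout. Of 1170 values of single named genes under alternatives, 1121 kept direction and call, 31 lost the call and 18 reversed. Depth limits PTGER1, PTGER2 and PTGER3, and HPGD and PTGER4 rest on low counts.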
